A study of Mus musculus with 10 samples.

Results

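The Hox genes of mouse back skin epithelium were taken as every gene in the deposited expression table whose symbol is Hox, a cluster letter from a to d and a number. That gave 40 of 37298 gene entries and 39 symbols, because Hoxa3 is listed under 2 Ensembl identifiers. Their expression comes from 4 RNA sequencing libraries of hair follicle stem cells (HFSCs), the CD34+ cells of the follicle bulge. The binding of SOX9 comes from ChIP-seq, sequencing of DNA that an antibody to SOX9 precipitates from chromatin, with 2 HFSC libraries and 1 from the interfollicular epidermis (IFE). SOX9 is a transcription factor of the high mobility group class that HFSCs express.

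The Sox9 cKO group (conditional knockout, called Sox9 Knock out in the genotype field) holds a library from a male of postnatal day 75 and a library from a female of day 80. The control group holds a library from a male of day 75 and a library from a female of day 80, named Sox9 Het in the titles and wild type in the genotype field. Mice of both groups were of strain background C57BL6, mixed. RU486, which activates CrePGR, the Cre recombinase fused to the progesterone receptor, was given on days 48 to 61 to males and on days 53 to 66 to females. The promoter that drives CrePGR is not named in the labels, and cells of both groups were sorted as integrin α6hi, CD34+, ScaI- and YFP+ from back skin with resting (telogen) follicles. For ChIP, CD-1 females aged 52 to 60 days without treatment were used, the HFSCs as integrin α6hi CD34+ ScaI- and the IFE cells as integrin α6hi CD34- ScaI-. Since it is not stated if a library is 1 mouse or a pool, p-values measure only the spread between these libraries, which may be in part technical. Within a genotype, that spread also holds the differences in sex, age and treatment days. Expression is given as FPKM (fragments scaled to transcript length and to the mapped fragments of the library), which is per length, so that levels of different genes can be set side by side. Pair 1 is the male pair and pair 2 the female pair.

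The targeted gene did not follow the labels in both pairs. Sox9 had 71.3 and 80.5 FPKM in the libraries labelled cKO, in the order pair 1 and pair 2, against 82.7 and 46.5 FPKM in the control libraries. The library labelled cKO thus lay lower than its control in the male pair and higher in the female pair. FPKM counts reads over the whole gene, and whether they come from a deleted or an intact allele cannot be told apart here. All 10 bulge markers examined were at 1 FPKM or more in all 4 libraries. Of these, 4 lay lower in the library labelled cKO of both pairs (Lhx2, Cd34, Lgr5 and Nfatc1) and 1, Itga6, higher. Lhx2 had 114 and 87.1 FPKM in the libraries labelled cKO against 359 and 195 FPKM in controls, and Cd34 had 459.5 and 463 FPKM in the libraries labelled cKO against 652 and 680.0 FPKM in controls. Some bulge markers thus lay on the same side as the Hox genes, and their part in the Hox values was not tested. Of 10 dermal fibroblast markers, 6 were under 1 FPKM in every library, and the list's summed level was 113 and 106 FPKM in the libraries labelled cKO, against 107 and 80.5 FPKM in controls. The 3 at 1 FPKM or more in all libraries were Fbln1, at 55.8 to 78.7 FPKM, Vim, at 11.7 to 20.6 FPKM, and Col1a2, at 7.40 to 21.9 FPKM. Col1a1 had 0.336 and 6.99 FPKM in the libraries labelled cKO against 1.80 and 0.802 FPKM in controls. Dcn, Lum, Pdgfra, Twist2, Dpt and Col3a1 had at most 0.785 FPKM in any library. The sum of the fibroblast list was higher in the library labelled cKO in both pairs, the opposite of most Hox genes. Its part in their values was not tested. Of the other lists, at 1 FPKM or more in all libraries were 0 of 4 endothelial markers, 2 of 6 of the dermal papilla (Crabp1 at 14.7 to 33.2 FPKM and Wif1 at 5.10 to 11.2 FPKM), 1 of 7 of melanocytes (Mitf at 13.7 to 44.3 FPKM), 1 of 5 of immune cells (Cd207 at 2.72 to 4.95 FPKM) and 1 of 5 of muscle (Acta1 at 7.61 to 9.22 FPKM). Des, a muscle gene, had 5.01 FPKM in the female library labelled cKO and was listed at 0 in the other 3. Markers of interfollicular differentiation summed to 2505 and 4662 FPKM in the libraries labelled cKO, against 2641 and 7275 FPKM in controls, and their part in the values below was not tested.

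Hox genes encode homeodomain transcription factors that give cells their position along the head to tail axis of the body. They lie in 4 clusters, HoxA to HoxD, numbered from the 3′ end, where genes used in the head and neck lie, to the 5′ end, where genes of the tail and limb ends lie. Genes of the same number in different clusters are paralogs, and skin keeps a Hox pattern that reflects where on the body it lies. Hoxc13 is unusual among the posterior genes in that it also acts in hair and nails wherever they grow.

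Back skin HFSCs expressed most, but not all, of the anterior and middle Hox genes and, of the posterior ones, Hoxc13. At 1 FPKM or more in all 4 libraries were 21 of the 40 entries, or 20 symbols, against 35.5% of all genes in the table. Among groups 1 to 9 this held for 20 of 28 entries, and among groups 10 to 13 for 1 of 12. At the anterior end, Hoxb1 and Hoxd1 reached at most 0.0208 and 0.215 FPKM in any library. Of group 9, Hoxb9 alone passed. The other 11 entries of groups 10 to 13 reached at most 0.529 FPKM in any library. By cluster, 7 of 12 entries of HoxA, 8 of 10 of HoxB, 4 of 9 of HoxC and 2 of 9 of HoxD passed. Groups 5 to 9 held 78.2% and 76.7% of all Hox FPKM in the libraries labelled cKO, against 74.7% and 74.5% in controls.

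**Figure D1:**
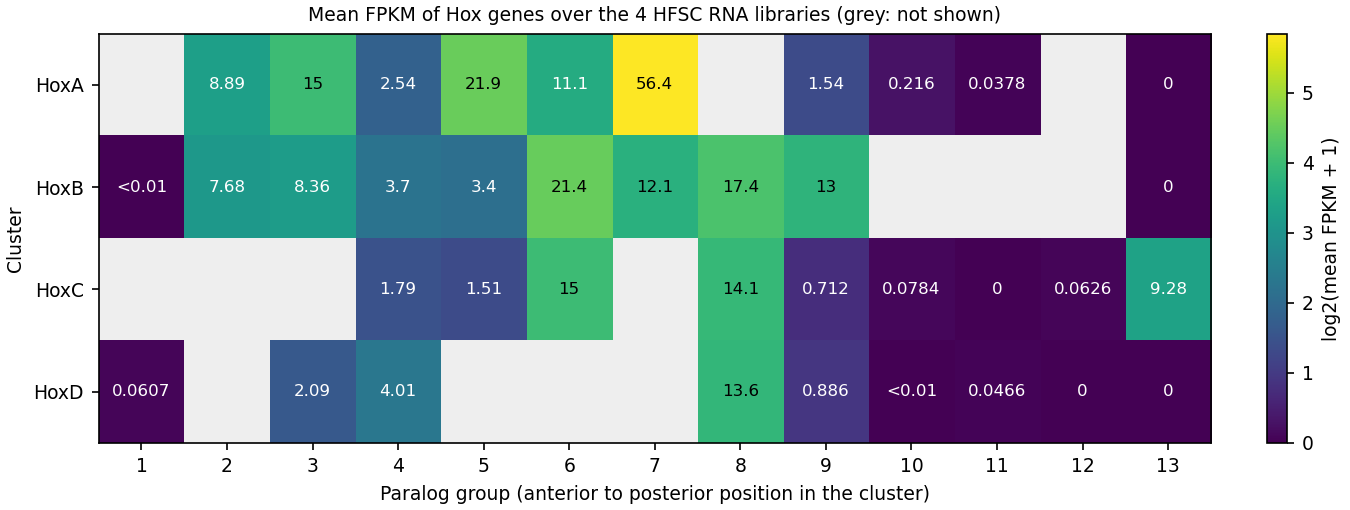
Mean FPKM over the 4 RNA libraries for the Hox genes shown, with clusters HoxA to HoxD down the page and gene numbers across it, from 3′ to 5′. The high values lie at numbers 2 to 9, with Hoxc13 alone among numbers 10 to 13.

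The edge of this threshold was not sharp. Just inside lay Hoxc4, Hoxd4 and Hoxa4, with lowest values of 1.30, 1.38 and 2.25 FPKM. Just outside lay Hoxd3, Hoxc5 and Hoxa9, with lowest values of 0.941, 0.895 and 0.819 FPKM. Altogether 6 genes were at 1 FPKM or more in some libraries but not all, among them Hoxa9, Hoxc5, Hoxc9, Hoxd3 and Hoxd9. Hoxc5 had 1.43 and 0.895 FPKM in the libraries labelled cKO against 2.34 and 1.38 FPKM in controls. Hoxa9, known for its part in blood cell growth and leukaemia, had 0.982 and 2.15 FPKM in the libraries labelled cKO against 2.22 and 0.819 FPKM in controls. Hoxc5 was lower in each pair, and Hoxa9 was on opposite sides. Hoxc9 and Hoxd9 had 0.238 to 1.36 FPKM over the 4 libraries. Another 13 were under 1 FPKM in every library. Of these, Hoxa13, Hoxb13, Hoxc11, Hoxd12 and Hoxd13 were listed at 0 in all 4, which at an unknown depth does not show that they are absent. Hoxa13 and Hoxd13 pattern the digits and the urogenital tract, and Hoxb13 acts in the tail end and the prostate.

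HoxA gave the highest levels. Hoxa7, whose human counterpart acts in keratinocyte differentiation, had 48.1 and 54.6 FPKM in the libraries labelled cKO, against 62.2 and 60.9 FPKM in controls. Only 5.39% of the genes in the table had a mean at or above it, and it alone made 21.2% and 21.5% of all Hox FPKM in the libraries labelled cKO, against 20.0% and 21.4% in controls. Its share of the Hox total was thus about the same in all 4 libraries, while its level did not overlap between the groups. Hoxa5, which patterns the neck and upper thorax and acts in lung development, had 19.5 and 20.1 FPKM in the libraries labelled cKO, against 24.4 and 23.8 FPKM in controls. Hoxa6, a gene of the thorax, had 11.8 and 7.20 FPKM in the libraries labelled cKO, against 18.0 and 7.21 FPKM in controls. Hoxa5 was lower in both pairs without overlap, and Hoxa6 differed in the male pair and was level in the female pair.

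The anterior HoxA genes included the Hox entries with the lowest log2 changes. Hoxa3, which acts in the neck, thymus and parathyroid, had 8.54 and 6.82 FPKM in the libraries labelled cKO against 16.8 and 10.7 FPKM in controls under its annotated identifier (ENSMUSG00000079560). Under the other identifier (ENSMUSG00000059723), which the name table used here does not hold, it had 3.45 and 2.52 FPKM in the libraries labelled cKO against 5.77 and 5.53 FPKM in controls. Both entries were thus between 45.6% and 63.9% of the paired control, but they share a locus and are not independent measurements. Hoxa2, which patterns the hindbrain and the second pharyngeal arch, had 5.27 and 9.55 FPKM in the libraries labelled cKO, against 8.96 and 11.8 FPKM in controls. Hoxa4 had 2.62 and 2.25 FPKM in the libraries labelled cKO, against 2.75 and 2.53 FPKM in controls. Hoxa2 was lower within each pair although its groups overlapped, and Hoxa4 was close to its control in both pairs.

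HoxB was the most completely expressed cluster, with every gene from Hoxb2 to Hoxb9. Hoxb6 had 19.0 and 20.7 FPKM in the libraries labelled cKO against 21.8 and 24.0 FPKM in controls. Hoxb8, a thoracic gene whose loss makes mice groom to excess, had 18.5 and 12.3 FPKM in the libraries labelled cKO against 21.5 and 17.2 FPKM in controls. Hoxb7 had 7.66 and 13.1 FPKM in the libraries labelled cKO against 10.2 and 17.5 FPKM in controls. Both pairs of Hoxb7 gave nearly the same ratio, 75.2% and 74.6% of the control, across levels that differed between the pairs more than between genotypes. Hoxb9, which helps to pattern the ribs, had 8.32 and 12.2 FPKM in the libraries labelled cKO against 16.6 and 15.0 FPKM in controls. Hoxb3 had 5.76 and 6.53 FPKM in the libraries labelled cKO against 13.2 and 7.90 FPKM in controls. For Hoxb9 and Hoxb3 the groups did not overlap and the difference was mostly that of the male pair, at 49.97% and 43.5% of the control, against 81.4% and 82.7% in the female pair.

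The remaining HoxB genes had lower levels. Hoxb4, known for expanding blood stem cells when overexpressed, had 2.98 and 2.92 FPKM in the libraries labelled cKO against 4.71 and 4.18 FPKM in controls, without overlap. Hoxb5 had 3.27 and 2.52 FPKM in the libraries labelled cKO against 5.09 and 2.71 FPKM in controls. Hoxb2, which acts in the hindbrain, had 5.96 and 8.78 FPKM in the libraries labelled cKO against 7.11 and 8.86 FPKM in controls. Hoxb5 and Hoxb2 differed in the male pair and were nearly level in the female pair.

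HoxC stood closer to its controls. Hoxc6 had 15.0 and 14.3 FPKM in the libraries labelled cKO against 15.9 and 14.8 FPKM in controls. Hoxc8, a gene of the lower thorax, had 14.2 and 12.9 FPKM in the libraries labelled cKO against 17.6 and 11.7 FPKM in controls. Hoxc4 had 1.46 and 1.30 FPKM in the libraries labelled cKO against 2.32 and 2.07 FPKM in controls. Of the 3, the groups were apart for Hoxc4, Hoxc6 differed little, and Hoxc8 was on opposite sides of its control in the pairs.

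Hoxc13, which drives hair keratin genes in the growing hair shaft and whose human counterpart is mutated in a disorder of hair and nails, was expressed although the follicles rested. It had 10.3 and 6.74 FPKM in the libraries labelled cKO, against 9.58 and 10.5 FPKM in controls. That is 108% of the control in the male pair and 64.3% in the female pair, so the pairs were on opposite sides. The 10 hair keratin genes examined, among them known targets of Hoxc13, reached at most 0.356 FPKM in any library.

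In HoxD only Hoxd8 and Hoxd4 passed 1 FPKM in all libraries, and among the genes that did so their differences in the pairs lay furthest apart. Hoxd8 had 9.50 and 19.4 FPKM in the libraries labelled cKO, against 13.1 and 12.4 FPKM in controls. Hoxd4 had 1.38 and 6.59 FPKM in the libraries labelled cKO, against 3.52 and 4.55 FPKM in controls. In both genes the female library labelled cKO was the highest of the 4 and the male one the lowest. The same order held for Hoxd3, with 0.941 and 3.15 FPKM in the libraries labelled cKO, against 2.25 and 2.02 FPKM in controls.

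**Figure D2:**
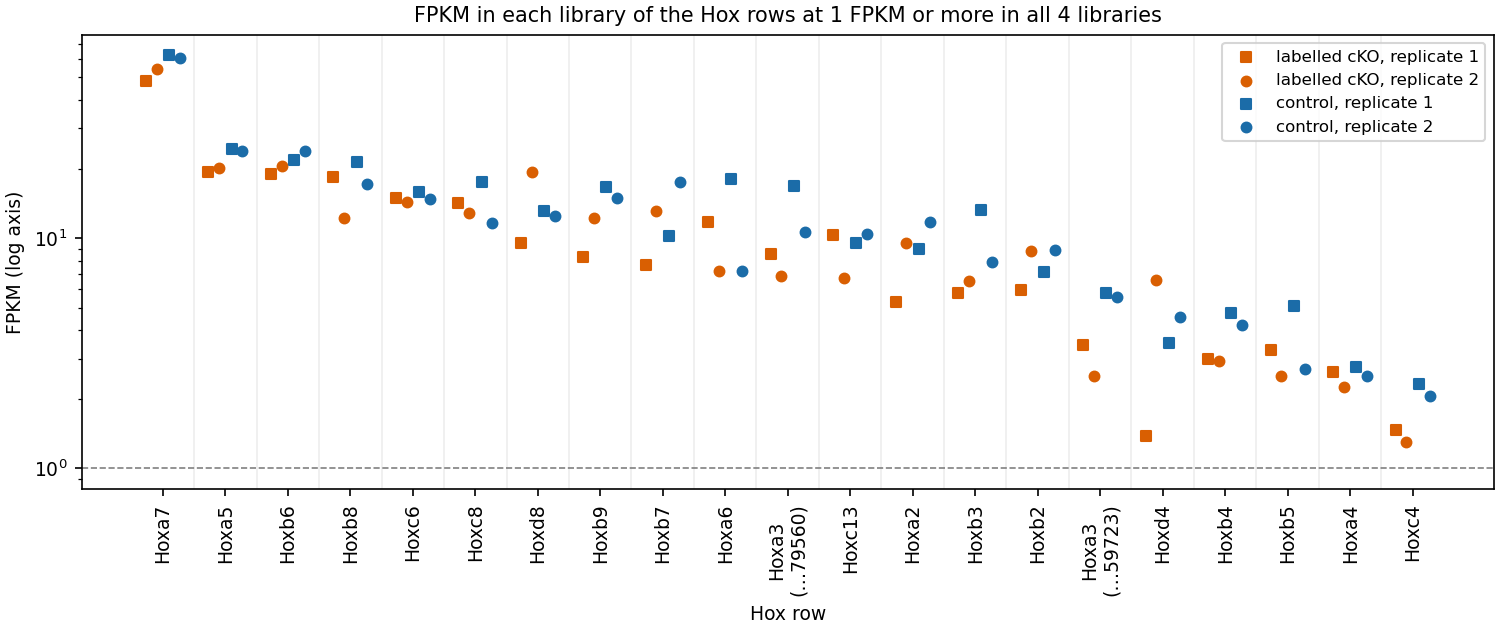
FPKM (log axis) of the 21 Hox entries at 1 FPKM or more in all 4 libraries, with a point for each library labelled cKO or control and symbols for the pair. Hoxa7 is highest, at 48.1 to 62.2 FPKM, and the points of Hoxd4 and Hoxd8 spread most between the libraries labelled cKO.

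Promoter sequence is shown for the best expressed gene of each cluster that has a window in the table used, so that the promoters of clusters that differed in direction can be read side by side. Each runs from 250 bases before to 50 bases after the gene start, read from RefSeq on build GRCm38.p6, which is not the mm9 build of the peak lists. Capitals mark ACAAT or its reverse complement ATTGT, the core bound by SOX proteins, and TGATNNAT or its reverse complement ATNNATCA, the site of Hox and PBX proteins together. Hoxa7 lies on the minus strand (chr6:52218524-52218823) and Hoxb8 (chr11:96281655-96281954), Hoxc4 (chr15:103034145-103034444) and Hoxd8 (chr2:74704365-74704664) on the plus strand.
Hoxa7: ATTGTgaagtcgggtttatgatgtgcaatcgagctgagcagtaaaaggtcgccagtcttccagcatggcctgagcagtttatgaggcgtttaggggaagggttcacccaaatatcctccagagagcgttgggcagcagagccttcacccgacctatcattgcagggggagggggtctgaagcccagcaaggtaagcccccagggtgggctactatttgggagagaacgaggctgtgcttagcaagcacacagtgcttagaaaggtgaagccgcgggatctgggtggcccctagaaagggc
Hoxb8: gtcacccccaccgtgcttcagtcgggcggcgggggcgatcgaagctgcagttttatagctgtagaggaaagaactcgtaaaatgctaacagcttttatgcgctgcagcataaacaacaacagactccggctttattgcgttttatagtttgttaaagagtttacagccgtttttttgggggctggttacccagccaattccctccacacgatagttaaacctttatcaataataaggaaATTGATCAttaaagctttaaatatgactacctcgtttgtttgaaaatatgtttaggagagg
Hoxc4: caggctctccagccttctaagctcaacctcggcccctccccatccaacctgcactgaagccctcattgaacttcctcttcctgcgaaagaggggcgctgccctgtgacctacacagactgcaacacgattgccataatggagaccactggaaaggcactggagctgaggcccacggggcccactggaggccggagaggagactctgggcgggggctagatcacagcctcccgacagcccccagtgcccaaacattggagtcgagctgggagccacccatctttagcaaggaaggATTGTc
Hoxd8: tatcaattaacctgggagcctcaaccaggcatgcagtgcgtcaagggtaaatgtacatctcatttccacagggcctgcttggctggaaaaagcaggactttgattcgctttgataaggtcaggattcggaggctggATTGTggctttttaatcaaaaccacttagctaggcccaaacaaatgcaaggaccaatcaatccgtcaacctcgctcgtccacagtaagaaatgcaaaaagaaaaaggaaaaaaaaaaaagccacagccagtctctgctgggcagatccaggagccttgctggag
The Hoxa7, Hoxc4 and Hoxd8 windows hold the SOX core once each, and the Hoxb8 window holds the Hox and PBX letters once. In all, 24 windows of 22 Hox symbols were in the table. The SOX core was in 7 of the 24, or 29.2%, which is close to the 31.0% of 32851 windows of all genes. It was in 6 of the 10 windows of genes expressed in all libraries (Hoxa2, Hoxa3, Hoxa5, Hoxa7, Hoxc4 and Hoxd8) and in 1 of the 14 others (Hoxd10). The same split over windows of all genes is not given here, so no link between the core and expression can be read from it. The Hox and PBX letters were in 4 of the 24 (Hoxa2, Hoxb8, Hoxb1 and Hoxd11), against 8.85% of all windows. No matches of the 2 motifs overlapped in the printed windows, and a match describes the letters only.

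Within pairs, most expressed Hox genes lay lower in the libraries labelled cKO. Of the 21 entries, 17 were lower in both pairs and 0 higher in both, while 29.5% of all 13233 genes at 1 FPKM or more in all libraries were lower in both pairs and 29.1% higher in both. The exceptions were Hoxc8, Hoxc13, Hoxd4 and Hoxd8. After quantile normalization of the libraries the count was 15, without Hoxa4 and Hoxa6, against 27.5% of all genes lower in both and 30.6% higher. After centring on each library's median it was 16, without Hoxa6, against 24.5% lower and 34.2% higher. Hox genes lower than their control numbered 20 of 21 in the male pair, against 54.4% of all genes, and 18 of 21 in the female pair, against 45.9%. The median log2 difference of the 21, on the scale of log2(FPKM + 1), was -0.43 in the male pair and -0.23 in the female pair, beside -0.03 and 0.03 over all genes.

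These entries are not separate measurements. Genes of a cluster overlap in the annotated loci, 23 of the 40 share a locus with another Hox entry, and the strand of the libraries is not given, so reads of overlapping and antisense genes cannot be told apart. The 21 expressed entries fall in 10 distinct loci, of which 7 had a lower sum of these entries in both pairs, against 29.2% of the 11348 loci with such a gene. With all genes of the table at a locus summed, it was 8 of 10, against 29.2% as well. In bulk samples, fewer cells of a type and less RNA per cell cannot be told apart.

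Both libraries labelled cKO lay under both controls for 9 of the 21 entries, against 8.12% of all genes: Hoxa7, Hoxa5, both Hoxa3 entries, Hoxb9, Hoxb6, Hoxb4, Hoxb3 and Hoxc4. Both lay over both controls for 0 of 21, against 5.26%. The replicates, which differ in sex, age and days of treatment, separated about as many. Both male libraries lay over both female ones for 6 of 21 entries, against 37.4% of all genes, and under them for 4, against 38.9%.

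**Figure D3:**
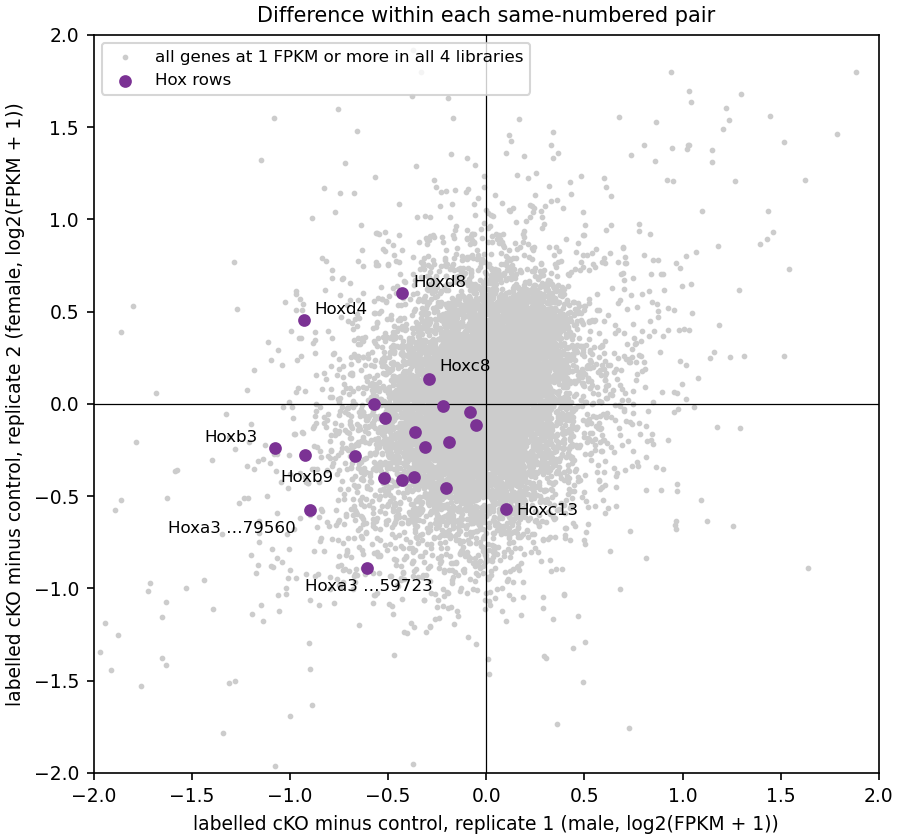
Difference in log2(FPKM + 1), library labelled cKO minus its control, in the male pair (x axis) and the female pair (y axis), with the expressed Hox genes over all expressed genes in grey; 20 genes lie beyond the axis limit of 2. Most Hox points fall in the lower left, with 17 of 21 below 0 on both axes, and Hoxd4 and Hoxd8 lie above 0 on the y axis.

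None of these differences passed a test across all genes. With genotype alone in limma, 0 of 25 Hox entries with a mean of at least 1 FPKM were called at an adjusted p under 0.05, as were 0.0% of the 14455 genes tested, and 0 of the 25 had an unadjusted p under 0.05, as had 93 of all genes. With the replicate number as a block in limma, which takes out the difference between the pairs, 0 of 25 Hox entries were called, against 0.284% of all genes. Before adjustment, 6 of the 25 had a p under 0.05 in that fit, against 11.4%, and all 6 were lower in the libraries labelled cKO, against 5.07% that were lower with such a p. The 6 were Hoxa2, both Hoxa3 entries, Hoxb3, Hoxb7 and Hoxb9.

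The largest log2 changes were those of Hoxa3, at -0.75 ± 0.20 and -0.74 ± 0.17 (blocked fit, moderated SE, n = 2 libraries per genotype), with adjusted p = 0.320 and 0.231 in limma. Hoxb3 followed at -0.66 ± 0.23 with adjusted p = 0.387 in the blocked limma fit, and Hoxb9 at -0.60 ± 0.19 with adjusted p = 0.372. Hoxa7, the highest expressed, differed least among these in log2 terms, at -0.26 ± 0.13 with adjusted p = 0.505 in the same limma fit. Estimates also moved when single libraries were left out. Those fits have no block, so the difference between the pairs enters their log2 changes. Without the male control library the log2 change was -0.43 for Hoxa3 under ENSMUSG00000079560 and -0.32 for Hoxb3, without the female control library it was -0.996 for Hoxb3, and without the male library labelled cKO it was -0.35 for Hoxb9 and -0.17 for Hoxa7. Of the 25 entries, 21 moved by over 1.5 times without some library; those that did not were Hoxa3 under ENSMUSG00000059723, Hoxa5, Hoxb4 and Hoxc4. The adjusted p of the 25 entries ran from 0.231 to 0.979 with the block.

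Summed over a cluster, HoxA, HoxB and HoxC lay below their controls in both pairs. HoxA summed to 100.9 and 107 FPKM in the libraries labelled cKO, against 143 and 125 FPKM in controls, or 70.8% and 85.7% of the control. HoxB summed to 71.4 and 79.0 FPKM in the libraries labelled cKO, against 100.3 and 97.4 FPKM in controls, or 71.2% and 81.1%. HoxC summed to 42.7 and 37.2 FPKM in the libraries labelled cKO, against 48.6 and 41.5 FPKM in controls, or 87.8% and 89.6%. HoxA and HoxB were thus further below their controls than HoxC in each pair. HoxD summed to 12.2 and 30.8 FPKM in the libraries labelled cKO, against 19.4 and 20.4 FPKM in controls, or 62.8% and 151%, and so was on opposite sides. Differences between the clusters were not tested. Across clusters, the group 3 paralogs Hoxa3, Hoxb3 and Hoxd3 summed to 18.7 and 19.0 FPKM in the libraries labelled cKO against 38.0 and 26.1 FPKM in controls, or 49.2% and 72.9% of the control. The group 8 paralogs Hoxb8, Hoxc8 and Hoxd8 summed to 42.1 and 44.6 FPKM in the libraries labelled cKO against 52.1 and 41.3 FPKM in controls, or 80.8% and 108%. Group 3 was thus lower in both pairs and group 8 on opposite sides.

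Other expressed entries at the clusters were more often lower than higher in the libraries labelled cKO. Of 31 such entries, 11 were at 1 FPKM or more in all libraries, against 35.5% of all genes. Of the 11, 7 were lower in both pairs and 1 higher, against 29.5% and 29.1% of all genes at that level. Some of them share a locus with Hox entries and are not separate measurements. Gm15051, the Hotairm1 transcript at the 3′ end of HoxA, had 16.9 and 27.8 FPKM in the libraries labelled cKO, against 20.8 and 23.9 FPKM in controls. Gm53 had 24.1 and 37.8 FPKM in the libraries labelled cKO, against 56.0 and 48.7 FPKM in controls. Gm11539 had 183 and 485 FPKM in the libraries labelled cKO, against 145 and 382 FPKM in controls. Gm53 lay lower without overlap, and Gm11539, the 1 entry higher in both pairs, differed more between the pairs than between genotypes. Among antisense transcripts, 5730446D14Rik (Hoxaas2), in the locus of Hoxa3, had 1.97 and 2.66 FPKM in the libraries labelled cKO, against 3.37 and 5.44 FPKM in controls, without overlap. In HoxD, 1700109F18Rik (Hoxd3os1) had 3.58 and 17.6 FPKM in the libraries labelled cKO, against 5.48 and 10.04 FPKM in controls, on opposite sides like Hoxd4 and Hoxd8, with which it shares a locus. Hotair and Hottip, long non-coding RNAs of the posterior HoxC and HoxA clusters, were listed at 0.

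SOX9 peaks lay at HoxA, HoxB and HoxC and at no HoxD gene. The lists hold positions only, on build mm9. Around the Hox loci, which were extended by 10 kb on each side, HFSC list 1 had 10 of its 8181 peaks, HFSC list 2 had 1 of 2989 and the IFE list 6 of 5209. By entry, 22 of 40 had a peak in HFSC list 1, against 22.6% of all genes, 6 of 40 in HFSC list 2, against 14.4%, and 18 of 40 in the IFE list, against 22.5%. A peak in any list was near 25 of 40, against 32.7%. Because one peak in a shared locus counts for several genes, distinct loci were counted as well: 9 of 24 in HFSC list 1, against 17.8% of all loci, 2 of 24 in HFSC list 2, against 11.1%, and 8 of 24 in the IFE list, against 17.6%. Neighbouring Hox loci can lie within 10 kb of each other, so a peak could still count for more than 1 locus. The 1 peak of HFSC list 2 did so for both of its 2 loci. The median length was 7223 bp for Hox loci and 8176 bp for all loci. Some loci that hold peaks were much longer. The locus shared by Hoxa2 to Hoxa7 spans 59505 bp, that of Hoxc5 to Hoxc10 50635 bp and that of Hoxb2 and Hoxb3 32365 bp. The part of locus length in these shares was not tested.

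In HoxB all 5 peaks came from HFSC list 1. Of these, chr11:96157622-96158558 and chr11:96159902-96160556 lay in the locus of Hoxb5 and Hoxb6. The other 3 were chr11:96185694-96186464, chr11:96202286-96203081 and chr11:96207728-96208182, in the locus of Hoxb2 and Hoxb3. Hoxb9, at chr11:96132770-96137909, had no peak within 10 kb in any list, and it was lower in both pairs.

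In HoxA the peaks of HFSC list 1 and the IFE list fell in the same locus but not on each other. HFSC list 1 had chr6:52114952-52115586, chr6:52115621-52116822 and chr6:52141630-52141930 in the locus that Hoxa2 to Hoxa7 share, which runs from 52112349 to 52171853. The IFE list had chr6:52118496-52118962 and chr6:52167448-52167849 there, and chr6:52184099-52184713 in the locus of Hoxa10. The nearest HFSC and IFE peaks were 1674 bp apart.

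In HoxC each list had a peak of its own. At Hoxc13 (chr15:102751533-102759245) HFSC list 1 had chr15:102754419-102754816 and the IFE list chr15:102752305-102752780, which lie 1639 bp apart. Further along, HFSC list 1 had chr15:102845826-102846342, HFSC list 2 had chr15:102844557-102845000, and the IFE list had chr15:102829650-102830080 and chr15:102848221-102848712. The 2 HFSC peaks there were 826 bp apart, so that neither is found in the other HFSC list. No Hox peak was shared between any lists at an overlap of 1 bp. Over the genome 68.6% of the peaks of HFSC list 2 overlapped HFSC list 1, as did 45.7% of the IFE peaks. Those shares stand beside only 1 Hox peak of HFSC list 2 and 6 of the IFE list. For the 10 Hox peaks of HFSC list 1 no such share is given, and that list is longer than HFSC list 2, with 8181 peaks against 2989. A Hox peak was thus not seen at the same position in both HFSC libraries.

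**Figure D4:**
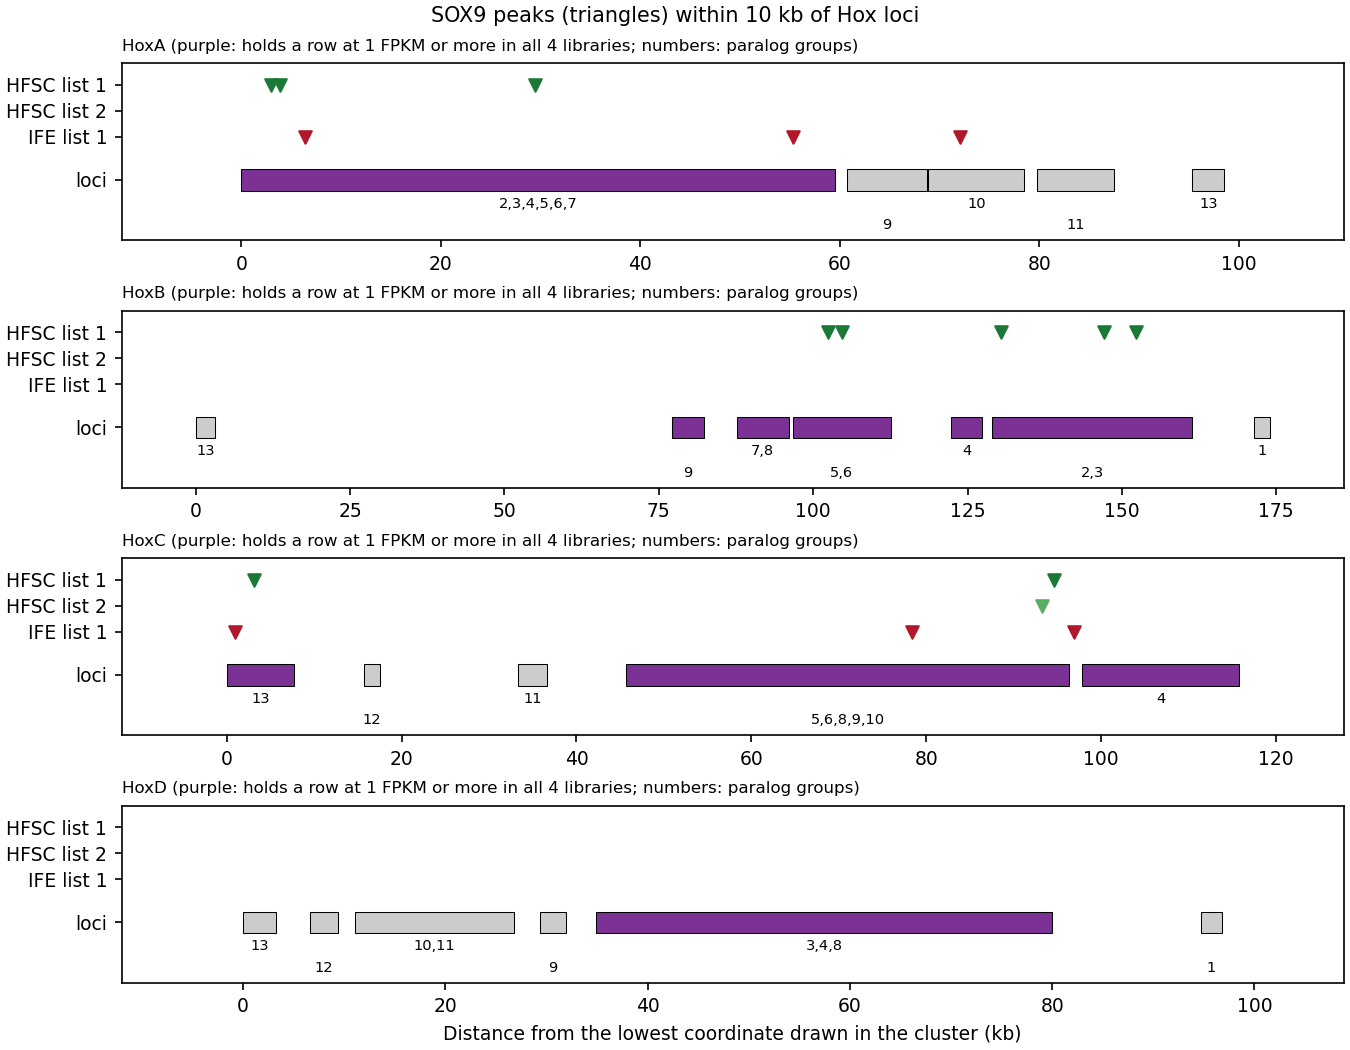
SOX9 peaks along each Hox cluster on build mm9, as distance in kb from the lowest coordinate drawn in the cluster, with loci as bars (purple where a gene is at 1 FPKM or more in all 4 libraries) and triangles for the peaks of each list. HFSC list 1 has 10 peaks near Hox loci, HFSC list 2 has 1 and the IFE list 6, and HoxD has none.

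Of the 21 expressed entries, 18 had a peak within 10 kb in HFSC list 1, as had 4 of the 19 others, beside 22.6% of all genes at any level. The same split over all genes is not given here, so the contrast is not shown to be particular to Hox genes. The other lists showed less of a contrast. In HFSC list 2 a peak was near 3 of the 21 and 3 of the 19, and in the IFE list near 11 of the 21 and 7 of the 19. The 18 expressed entries with a peak in HFSC list 1 had a median log2 change of -0.29, and 16 of the 18 were lower in both pairs. The 3 expressed genes with no peak within 10 kb of their locus in any list were Hoxb9, Hoxd4 and Hoxd8, with a median of -0.24. Of the 3, 1, Hoxb9, was lower in both pairs. Distance was taken from the whole shared locus, so a peak counted for an entry can lie over 10 kb from that gene itself. Most of the 18 share the few loci above, so the comparison rests on few positions and was not tested.

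Genes that act with or on the Hox clusters were described from lists of the TALE cofactors, the silencing Polycomb and activating Trithorax proteins, retinoid genes and genes of the hair shaft. In each list 0 genes were called in limma, with or without the block, at an adjusted p under 0.05. Over all tested genes 0.0% were called without the block and 0.284% with it, so 0 calls in short lists say little. For the counts of direction in each list, the shares of all genes expressed in all libraries were 29.5% lower in both pairs and 29.1% higher. The TALE cofactors, which bind DNA together with Hox proteins, had 7 of 9 members expressed in all libraries, of which 3 were lower in both pairs and 1 higher, with a median log2 change of -0.02. Pbx3 had 11.9 and 8.35 FPKM in the libraries labelled cKO, against 13.2 and 10.8 FPKM in controls, and Pknox1 had 7.71 and 4.33 FPKM in the libraries labelled cKO, against 8.65 and 6.48 FPKM in controls. Pbx4, the 1 higher in both pairs, had 1.61 and 2.45 FPKM in the libraries labelled cKO, against 1.44 and 1.43 FPKM in controls. Of 29 Polycomb genes, 27 were expressed, 11 were lower in both pairs and 3 higher, with a median of -0.11 over the 27. Cbx6, a Polycomb subunit that binds methylated histone H3, had 7.92 and 9.33 FPKM in the libraries labelled cKO, against 16.2 and 12.4 FPKM in controls. Of 14 Trithorax genes and demethylases, all 14 were expressed, 6 were lower in both pairs and 2 higher, with a median of -0.08. Mll5 had 22.4 and 8.11 FPKM in the libraries labelled cKO, against 27.4 and 11.5 FPKM in controls. Dpy30, 1 of the 2 higher in both pairs, had 21.2 and 45.5 FPKM in the libraries labelled cKO, against 18.0 and 43.5 FPKM in controls. Cbx6 and Mll5 thus lay lower in each pair, and Mll5 differed more between the pairs than between genotypes.

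Retinoic acid switches on Hox genes in the embryo, and CYP26B1 breaks it down. Cyp26b1 had 29.8 and 21.3 FPKM in the libraries labelled cKO, against 61.4 and 35.3 FPKM in controls, a log2 change of -0.86 ± 0.14 in the blocked limma fit with adjusted p = 0.0936. Of the 17 retinoid genes 9 were expressed in all libraries, with 4 lower in both pairs, 1 higher and a median of -0.10 over the 9. Of 14 hair shaft genes 3 were expressed in all libraries, with 2 lower in both pairs, 0 higher and a median of -0.72 over the 3. Dlx3, a homeobox gene needed for hair growth, had 9.87 and 6.44 FPKM in the libraries labelled cKO, against 16.3 and 13.2 FPKM in controls, with a log2 change of -0.80 ± 0.16 and adjusted p = 0.170 in the blocked limma fit. Msx2, which keeps the hair shaft differentiating, had 3.61 and 5.06 FPKM in the libraries labelled cKO, against 9.14 and 6.45 FPKM in controls. Both lay under their controls without overlap. Foxq1 differed by 0.55 in the male pair and -0.19 in the female pair, and Foxn1, a regulator of hair keratins, by 0.11 and -0.53, so that both were on opposite sides. Evx1, Evx2, Cdx1, Cdx2, Cdx4 and Gdf11, which lie next to or upstream of the Hox clusters in the embryo, reached at most 0.0856 FPKM.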

How the data were processed

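Expression was measured in 4 RNA libraries and SOX9 binding in 3 ChIP libraries; values of the 3 input libraries are not used here. The authors deposited expression as FPKM, per the file headers. Each ChIP library has a deposited peak list with positions only, and its caller and threshold are not given here. Bowtie, TopHat, TopHat2, Cufflinks 1.0.3 and build mm9 appear in the submitters' processing notes, with no role given. FPKM moves with gene length and with the few most abundant transcripts. Low values shared no common step between libraries (3.01% of gene ratios fell in the commonest bin), so the depth is unknown and no counting interval is given.

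Values were tested as log2(FPKM + 1), which understates changes of low genes, with limma 3.58.1 in R 4.3.3 (two-sided, empirical Bayes with a trend over the mean) on the 14455 genes averaging at least 1 FPKM, with Benjamini-Hochberg adjustment. The fit was checked on simulated data. It has 2 residual degrees of freedom per gene, or 1 with the replicate number as a block. The numbers pair the libraries by sex, age and treatment days per the labels, and deviations of same-numbered libraries from their group means correlated at 0.812. Peaks were matched to the table's gene loci within 10 kb. Hox entries were named by rule, 1 of them is not reported here, and of each companion list up to 4 members with the smallest blocked p were considered. The Hox set and the lists were chosen with earlier results of these data known. Alternatives were other pseudocounts, filters, normalizations, windows, overlaps and leaving out each library. Of the Hox identifiers, 38 of 40 matched the reference name table.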

Additional observations from a re-analysis of the deposited data

Results flagged for a closer look

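Among the expressed Hox genes 4 differed in direction between the male and the female pair, and for each the difference between the pairs was not tested. Hoxc8 differed from its control by -0.29 in the male pair and 0.13 in the female pair, on the scale of log2(FPKM + 1). Hoxc13 differed by 0.10 in the male pair and -0.57 in the female pair. For Hoxd4 the differences were -0.93 in the male pair and 0.45 in the female pair, and for Hoxd8 they were -0.43 and 0.60. Sex, age and treatment days differ together between the pairs and cannot be told apart, and Sox9 itself differed from its control by -0.21 in the male pair and 0.78 in the female pair.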

How the results depend on the processing

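With 2 libraries per genotype and an unknown depth, small differences were not detectable. No Hox gene was called under any alternative. Over all genes, the genotype fit called 0 and the replicate block called 41. The block called 33 with a pseudocount of 0.1, 78 with a pseudocount of 5, 3 with quantile normalization and 47 with median-centred values. It called 0 without the trend over the mean and 0 without the filter on low values. The block, which follows the pairing by sex and age, changed no call of a Hox gene. The median log2 change of the expressed Hox genes ran from -0.36 to -0.23 over all settings. Leaving out 1 library turned the direction of 9 genes, whose log2 changes ran from -0.89 to 0.32 for Hoxa6, -0.36 to 0.46 for Hoxa9, -0.36 to 0.13 for Hoxb2, -0.65 to 0.061 for Hoxb5, -0.36 to 0.20 for Hoxc8, -0.51 to 0.042 for Hoxc13, -0.69 to 0.41 for Hoxd3, -1.07 to 0.60 for Hoxd4 and -0.39 to 0.57 for Hoxd8; the cause was not tested. Without 1 library Hoxa2 ran from -0.85 to -0.099, Hoxb7 from -0.75 to -0.020 and Hoxb8 from -0.61 to -0.053. Fits without 1 library have no block, so the difference between the pairs enters these ranges. Within pairs, Hoxa2, Hoxa6, Hoxb2, Hoxb5, Hoxb7 and Hoxb8 were lower in both. Thresholds of 0.1, 0.5 and 5 FPKM in all libraries left 27, 25 and 15 Hox entries. Peaks inside the locus alone were near 17, 5 and 14 entries in HFSC list 1, HFSC list 2 and the IFE list, and a window of 100 kb gave 31, 9 and 23, beside 50.1%, 35.1% and 47.8% of all genes.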
